A study of Mus musculus with 64 samples.

Results

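Cells with a dendritic phenotype that carry both CD103 and CD11b were followed by their surface proteins through T cell transfer colitis of SCID mice, in the colon. A cell was a member when tagged antibodies called it positive for CD11c, CD103 and CD11b and negative for CD64, CD3, Ly-6G and Ly-6C. By this rule 1309 of 130442 cells were members. They are called CD103+CD11b+ cells below. They were spread over 9 libraries, and 929 of them came from weeks 0 and 1. The cells were chosen by the measured levels of these 7 antibodies, so those levels are given as a description and were not tested. The panel's other 4 antibodies, CD4, CD90.2, KLRG1 and CD127, took no direct part in the choice.

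Dendritic cells take up antigen and carry it to lymph nodes, where they activate T cells. In the intestine they are commonly divided by the integrins CD103, which binds E-cadherin on epithelium, and CD11b, which pairs with CD18 to bind complement fragments. The subset with both integrins is best known from the lamina propria of the small intestine, where it has been linked to responses of Th17 cells. CD103+CD11b- cells are known for cross-presentation to CD8 T cells and are the more common CD103+ subset of the colon. CD11c is an integrin of dendritic cells and of many macrophages. CD64, an Fc receptor, sets intestinal macrophages apart from dendritic cells. Ly-6G marks neutrophils, Ly-6C marks monocytes among other cells, and CD3 marks T cells.

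SCID mice lack T and B lymphocytes of their own, and every mouse used here, controls included, carried the label of a transfer of CD45RBhi T cells, a naive fraction that causes colitis in such hosts. The untreated libraries came from weeks 0, 1, 2, 3, 4, 5, 6 and 7, and 1 further week 7 library came from mice given anti-IL-12p40, an antibody to the subunit that IL-12 and IL-23 share, from day 10. Each library was 1 pool of 3 animals, sorted for immune cells without EpCAM and with CD45. The labels used here give no age. Week 0 also carries the transfer label, and whether its mice had received T cells by then is not stated there. With 1 pool per week, p-values measure only how unusual an order of the pools is, and the spread between pools of 1 week is unknown.

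The libraries held 12914066 to 28723452 antibody counts, and the median cell held 576.5 to 1566 counts. Library pairs shared 30 to 110 barcodes, and 0 barcodes of CD103+CD11b+ cells were found in more than 1 library. CD3+ cells made up 0.604% of all cells at week 0, 7.15% at week 1 and 41.3% to 88.1% from week 2 on. No doublets were removed beyond the top 1% of totals. CD103+CD11b+ cells were not the deepest barcodes: their median total was 495 to 856 counts per library, and 11% to 43.6% of them lay above their own library's median. Cells that met the rule but for CD11b had fewer counts at weeks 1, 2, 3 and 6, for example 429 against 596 at week 2. In the other libraries they had more, for example 934 against 795 at week 0.

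The positive calls rest on centred log ratios: for each antibody, ln(count + 1) less the average of ln(count + 1) over all 11 antibodies of the same cell. The rule placed the lower bounds at 0.497 for CD11c, 0.149 for CD103 and 0.712 for CD11b, and the upper bounds at 0.105 for CD64, -0.155 for CD3, 0.982 for Ly-6G and 3.162 for Ly-6C. In the text, the dendritic gate is the set of 12968 cells that met these conditions for all but CD103 and CD11b. It also held 5926 CD103+CD11b- cells, 2115 CD103-CD11b+ cells and 3618 cells with neither integrin. The gate is named for its rule and does not hold dendritic cells alone. Of the cells with neither integrin 72.9% were CD90.2+ (median 288 counts), and of the CD103-CD11b+ cells 38.9% were, against 14.7% of CD103+CD11b+ cells. A CD127+ call was made on 60.0% of the cells with neither integrin, at a median of 5 counts. The CD127 call did not separate positive from negative cells. The part of CD90.2+ cells in shares of the gate was not tested.

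With the thresholds of the rule, CD103+CD11b+ cells were most frequent at week 0 and less frequent in all later libraries. In weeks 0 to 7 in turn they numbered 688, 241, 80, 21, 100, 78, 56 and 6. In the same order they were 4.11% (95% interval 3.82% to 4.42%), 1.91%, 0.381%, 0.167% (0.104% to 0.256%), 0.558%, 0.561%, 0.491% and 0.0504% (0.0185% to 0.110%) of all cells. The intervals are exact Clopper-Pearson intervals and cover counting error only. Week 0 stood above all later libraries, weeks 4 to 6 lay close together, and weeks 3 and 7 were the lowest. Week 0 was also highest in each alternative with thresholds common to all libraries, but not with thresholds fitted in each library. With those, week 0 held 0.807% of all cells, below the 1.06% of week 1 and near the 0.731% of week 4. That fit left 916 cells in the week 0 gate, against 4716 under the rule. Its 135 members were 2.34% of CD3- cells, so it called far more cells CD3+ than the rule's 0.604%. The part of this in the lower share was not tested. In shares, a loss of these cells and an influx of other cells cannot be told apart, and the T cell influx of weeks 2 to 7 enters this denominator.

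Among CD3- cells the share was 4.14%, 2.06%, 0.650%, 0.435%, 1.25%, 1.98%, 1.11% and 0.422% (0.155% to 0.916%) in weeks 0 to 7 in turn. Week 5 was close to week 1 on this denominator, while weeks 3 and 7 remained the lowest. Within the dendritic gate the range was narrower. The share there was 14.6% (13.6% to 15.6%), 9.71%, 5.65%, 3.65% (2.27% to 5.53%), 7.17%, 11.8% (9.44% to 14.5%), 6.72% and 3.61% (1.34% to 7.70%) in weeks 0 to 7 in turn. With thresholds fitted in each library, week 0 held 2.34% of CD3- cells against 2.43% at week 5, and week 7 held 11.8% of the gate. With counts scaled to each library's median, weeks 3 and 7 had the highest shares of the gate, 14.3% each, from 1 of 7 cells. Under the rule, the interval at week 5 overlapped that at week 0, and the interval at week 7 overlapped those of weeks 2, 3, 4 and 6.

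**Figure D1:**
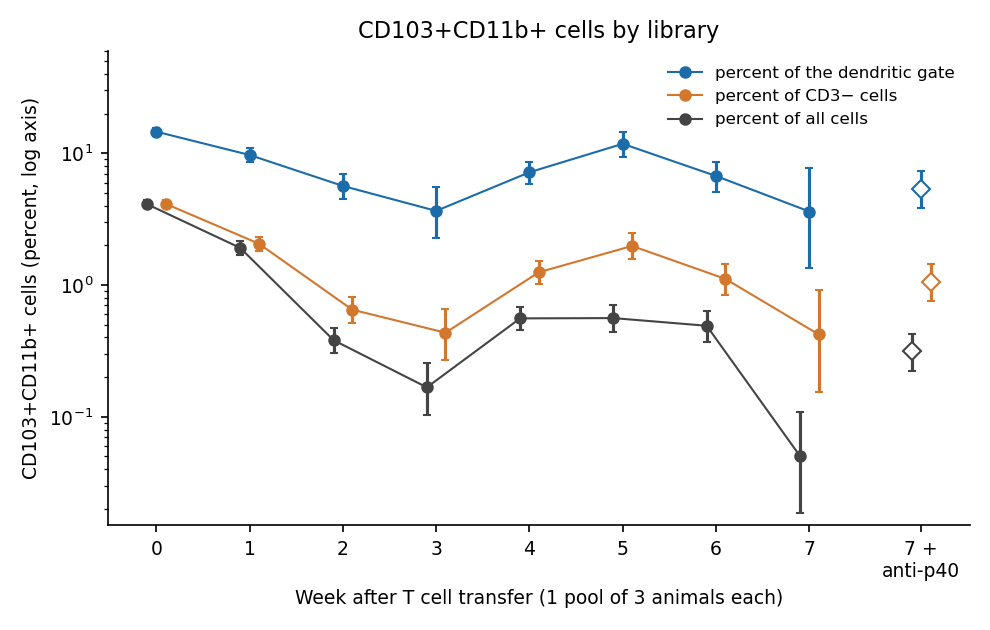
CD103+CD11b+ cells as a percent of all cells, of CD3- cells and of the dendritic gate, on a log axis, against week after transfer. Filled points are the 8 untreated pools with 95% counting intervals, and open diamonds are the anti-IL-12p40 pool. With the rule's thresholds, week 0 is highest on all 3 denominators, weeks 3 and 7 are lowest, and week 5 lies above both.

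No rank trend with week passed the test. Spearman's rho with week over the 8 untreated libraries was -0.619 for the share of all cells (two-sided exact permutation p = 0.115, Benjamini-Hochberg adjusted over 3 shares 0.172), and Pearson's r was -0.737 (exact permutation p = 0.0136, adjusted 0.0409). The share of CD3- cells gave the same rho and p, with r = -0.611 (exact permutation p = 0.0970, adjusted 0.146). The share of the dendritic gate gave rho = -0.524 (exact permutation p = 0.197, adjusted 0.197) and r = -0.521 (exact permutation p = 0.186, adjusted 0.186). The linear relation of the share of all cells rested on the first and last libraries. Without weeks 0 and 7, rho was -0.0857 and r was -0.531 for all cells (exact permutation p = 0.919 and 0.311), and r was 0.00571 for CD3- cells and 0.130 for the dendritic gate.

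As shares of the dendritic gate, its other parts followed another course. CD103+CD11b- cells made up 49.4%, 54.7%, 22.7%, 36.5%, 51.9%, 44.9%, 42.0% and 44.0% of the gate in weeks 0 to 7 in turn. CD103-CD11b+ cells were 9.78% of the gate at week 0 and 12.1% at week 1, and lay between 15.1% and 32.9% from week 2 on, with the highest value at week 2. The gate itself shrank from 4716 cells (28.2% of all cells) at week 0 to 166 (1.39%) at week 7. Of all cells, CD103+CD11b- cells were 13.9%, 10.8%, 1.53%, 1.67%, 4.04%, 2.14%, 3.07% and 0.613% in weeks 0 to 7 in turn. On that denominator both CD103+ classes were highest at week 0 and lowest at week 7.

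**Figure D2:**
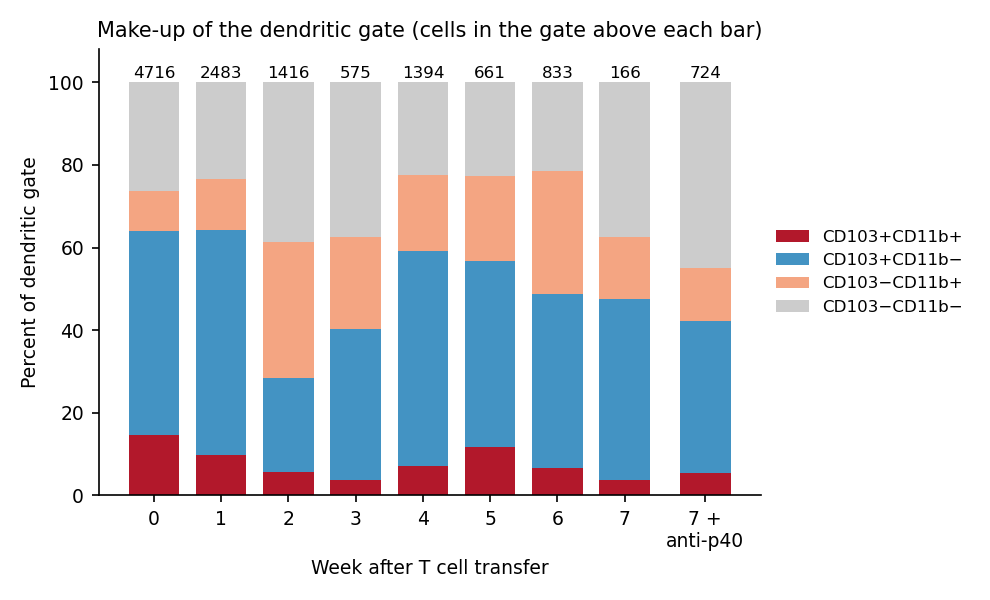
Make-up of the dendritic gate in each library, stacked by the presence of CD103 and CD11b, in percent, with the number of cells in the gate above each bar. The double-positive fraction ran from 14.6% at week 0 to 3.61% at week 7, and the CD103+CD11b- fraction was the largest in 6 of 9 libraries.

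Read from either integrin, double-positive cells were the smaller part of their class in all libraries but 1. Of CD103+ cells in the gate, 22.8%, 15.1%, 20.0%, 9.09%, 12.2%, 20.8%, 13.8% and 7.59% were also CD11b+ in weeks 0 to 7 in turn. Of CD11b+ cells in the gate, 59.9% were also CD103+ at week 0 and 44.5% at week 1, against 14.1% to 36.4% in weeks 2 to 7. At week 0 most CD11b+ cells of the gate thus also carried CD103. The odds ratio between the 2 integrins within the gate, where 1 would mean no association, was 0.794 at week 0 and 0.115 to 0.345 in weeks 1 to 7. With gates set on uncentred counts it was 0.481 at week 0 and 0.0916 to 0.301 in weeks 1 to 7. The ratio was below 1 in each library with both kinds of gate, as a description of cells that share a pool.

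CD11c, CD103 and CD11b were required by the rule, so their levels describe the cells and do not check the dendritic label. The panel held no other dendritic marker. The median CD11c count on CD103+CD11b+ cells was 271.5, 175, 127, 147, 180, 272, 325.5 and 284 in weeks 0 to 7 in turn. CD103-CD11b+ cells had 57 to 249.5 CD11c counts, and macrophage-phenotype cells (CD64+Ly-6C-) had 44 to 224. Within libraries, CD103+CD11b+ cells had more CD11c than CD103-CD11b+ cells in all but week 3, and more than macrophage-phenotype cells in all but weeks 3 and 4.

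CD103 was well above the level of cells called negative for it. The median was 179, 104, 47, 82, 51.5, 71, 66 and 74 counts in weeks 0 to 7 in turn. On CD103-CD11b+ cells it was 2 to 12 counts and on macrophage-phenotype cells 4 to 19, below the CD103+CD11b+ cells in all libraries. CD103 was lower than on CD103+CD11b- cells in each untreated library, where their medians ran from 57 to 273 counts. As the median percent of a cell's counts, CD103 took 20.9% at week 0, 19.8% at week 1 and 8.54% to 15.8% in weeks 2 to 7 on CD103+CD11b+ cells. On CD103+CD11b- cells it took 30.0%, 31.3% and 11.5% to 15.8% in the same weeks. As a background for this antibody, CD103+ calls were made on 17.6% of neutrophil-phenotype cells (CD3-CD11b+Ly-6G+) at week 0, 11.4% at week 1 and 1.39% to 6.69% in weeks 2 to 7. It was thus highest in the weeks that held most CD103+CD11b+ cells, and its part in their number was not tested.

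CD11b was present at a lower level than on other CD11b+ cells. The median was 67, 42, 62, 154, 45.5, 77.5, 88.5 and 46.5 counts in weeks 0 to 7 in turn. CD103+CD11b- cells had 5 to 14 counts, CD103-CD11b+ cells 82 to 300.5 and macrophage-phenotype cells 156 to 385. Pooled over libraries, the median was 64 counts on CD103+CD11b+ cells, 131 on CD103-CD11b+ cells, 244 on macrophage-phenotype cells and 501 on neutrophil-phenotype cells. In each untreated library the double-positive cells lay above the CD11b- cells and below the CD103-CD11b+ and macrophage-phenotype cells.

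**Figure D3:**
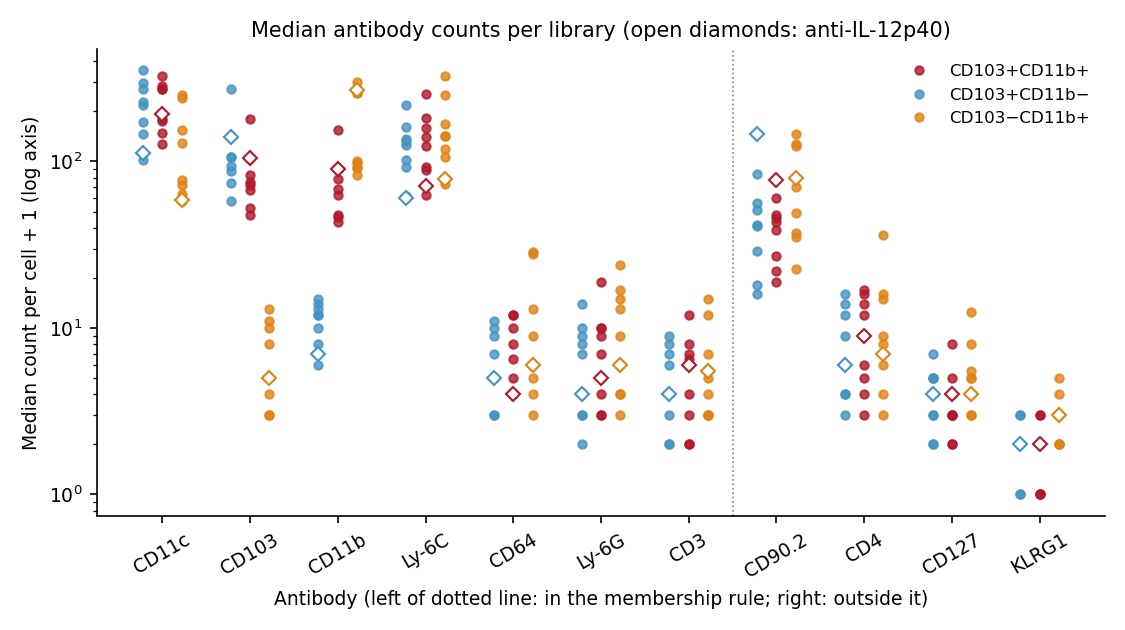
Median count plus 1 of each of the 11 antibodies, on a log axis, on CD103+CD11b+ cells and on the CD103+CD11b- and CD103-CD11b+ cells of the dendritic gate, with 1 point per untreated library and open diamonds for the anti-IL-12p40 library. Antibodies left of the dotted line define the cells. CD11b on CD103+CD11b+ cells, at 42 to 154 counts, lies between the 5 to 14 counts of CD103+CD11b- cells and the 82 to 300.5 of CD103-CD11b+ cells.

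The CD11b boundary cut through a continuous slope. Within 0.25 of the CD11b threshold, 341 CD103+CD11b+ cells (26.1%) lay just inside and 506 cells that met all other conditions lay just outside, with median CD11b counts of 30 and 21. The CD103 boundary had 96 cells (7.33%) just inside and 79 just outside, at 19 and 13 CD103 counts. The CD64 boundary had 87 (6.65%) inside and 88 outside. CD11c, CD3, Ly-6G and Ly-6C had 17, 19, 18 and 17 cells just inside.

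Among CD103+ cells of the gate the fullest CD11b bin, 0.25 wide, started 1 to 1.75 below the threshold in each of the 9 libraries. At week 0 the bins above the threshold fell from 175 cells to 29 and then held 41, 39 and 38, so a low shoulder stood above the slope. A bound of 2 on the CD11b ratio, chosen after seeing these values, held 330 CD103+CD11b+ cells (25.2%). Their share was 28.5%, 28.2%, 38.8% and 28.6% in weeks 0 to 3, and 9.0%, 12.8% and 5.36% in weeks 4 to 6. At week 7 only 1 of 6 cells lay above it.

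Cells above that bound had a pooled median of 268.5 CD11b counts against 45 below, and a median total of 863.5 against 648. Pooled medians of CD11c (228 against 232 counts) and CD103 (109.5 against 113) were close, but single libraries differed. At week 0, CD103 was 133.5 counts above the bound against 205.5 below, and at week 2 it was 65 against 37. Because the bound was cut on CD11b in the same cells, these values are a description.

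**Figure D4:**
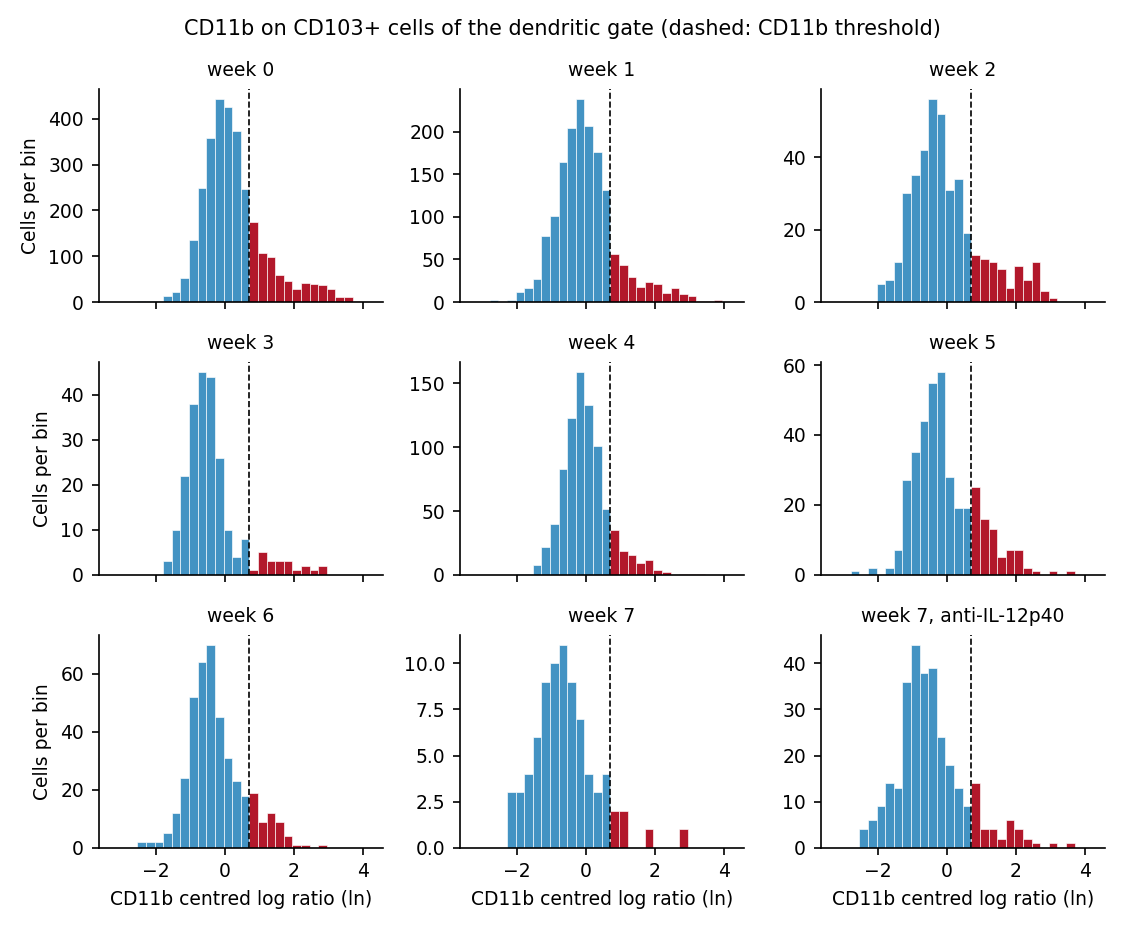
CD11b centred log ratio on CD103+ cells of the dendritic gate in each of the 9 libraries, as cells per bin 0.25 wide, with the CD11b threshold dashed. The fullest bin starts 1 to 1.75 below the threshold in every panel, and the cells to the right of the line are the CD103+CD11b+ cells.

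The antibodies required to be absent were low, with 1 exception. Pooled medians were 5 counts for CD64, 2 for CD3 and 3 for Ly-6G. Ly-6C was not low, and its median was 92, 62, 157, 252, 139, 123, 180.5 and 88 counts in weeks 0 to 7 in turn. CD103+CD11b- cells had 61 to 218.5 Ly-6C counts and macrophage-phenotype cells 110 to 381, and the 2 components fitted to this antibody lay 1.82 spreads apart (Ashman's D), below the 2 used here to call an antibody separable. Ly-6C negativity therefore excludes only the highest cells.

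CD90.2+ and CD4+ calls covered a minority of the cells and, but for CD90.2 at week 4, were no more frequent than on neutrophil-phenotype cells. A CD90.2+ call, which marks T cells and innate lymphoid cells, was made on 16.0%, 17.4%, 17.5%, 9.52%, 6.0%, 6.41% and 5.36% of CD103+CD11b+ cells in weeks 0 to 6 in turn. On neutrophil-phenotype cells, which should lack it, it was made on 48.0%, 36.8%, 23.5%, 14.8%, 4.30%, 11.9% and 22.2% in the same weeks. Only week 4 exceeded this comparison. The neutrophil-phenotype cells were also deeper, with median totals of 1404 to 4575 counts. At week 0 they were 125 cells with a median of 260 CD90.2 counts, against 42 on CD103+CD11b+ cells. Pooled, CD103+CD11b+ cells had a median of 37 CD90.2 counts and a 95th percentile of 980. Whether their CD90.2+ calls are background was not tested.

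The CD90.2+ share fell with week by the linear but not by the rank measure. Over the 7 untreated libraries with at least 20 CD103+CD11b+ cells, rho was -0.821 (exact permutation p = 0.0341, adjusted over 4 antibodies 0.137) and r was -0.901 (exact permutation p = 0.0111, adjusted 0.0444). Without week 0, r was -0.914 (exact permutation p = 0.0111, adjusted 0.0444) over 6 libraries. The neutrophil background was also highest at week 0 and lowest at week 4, and its part in the trend was not tested.

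CD4+ calls were made on 2.76%, 2.90% and 3.75% of CD103+CD11b+ cells in weeks 0 to 2, on 0 of 21 cells at week 3, and on 3.0%, 10.3% and 8.93% in weeks 4 to 6. Neutrophil-phenotype cells had 4.80% to 36.7% in the same weeks and were higher in each of them. Whether the CD4+ calls are background was not tested. KLRG1, a receptor of effector lymphocytes, was called on 4.36%, 7.47% and 7.5% in weeks 0 to 2, on 2.0% at week 4 and on 0 cells at weeks 3, 5 and 6. Its background on neutrophil-phenotype cells was 14.4%, 11.9% and 8.17% in weeks 0 to 2 and 3.71%, 1.01%, 2.68% and 0.774% in weeks 3 to 6, so week 4 alone exceeded it, with 2 of 100 cells. CD127, the interleukin-7 receptor, was called on 4.0% to 19.0% of CD103+CD11b+ cells, and exceeded its background in 5 of 7 weeks, but its components lay only 1.56 spreads apart, so positive and negative cells could not be separated. Rank trends were 0.679 for CD4 (exact permutation p = 0.110, adjusted 0.146), -0.741 for KLRG1 (exact permutation p = 0.0738, adjusted 0.146) and -0.607 for CD127 (exact permutation p = 0.167, adjusted 0.167), and none passed. At week 7, 0 of 6 cells had a call for any of the 4 antibodies, too few cells to read a share.

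The 4 antibodies outside the rule were then compared with the other cells of the gate in the same library, as the difference in mean natural log of the count plus 1. Each was lower on CD103+CD11b+ cells than on CD103-CD11b+ cells in 7 of 7 untreated libraries. The mean difference was -0.565 ± 0.239 for CD4, -0.660 ± 0.268 for CD90.2, -0.558 ± 0.247 for KLRG1 and -0.442 ± 0.148 for CD127 (SD, n = 7). Those are ratios of 0.569, 0.517, 0.572 and 0.643. The comparison cells were often positive for these proteins, with 58.1% CD90.2+ at week 0, and 53.4% CD90.2+ and 29.2% KLRG1+ at week 2. A CD127+ call, which did not separate positive from negative cells, was made on 49.2% of them at week 0. The comparison cells also held more counts per cell in weeks 2 to 6, for example 1407 against 856 at week 3. The levels compared are not scaled to depth. The exact sign-flip permutation p was 0.0156 for each, the smallest that 7 libraries can give, and 0.0313 after adjustment over 8 comparisons.

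This difference was not found with gates that did not use the cell mean. The mean subtracted in each gate includes the 4 antibodies tested here, and its part in the difference was not tested. With gates set on uncentred counts, an alternative added after seeing the data, 658 cells were members, and 6 libraries held at least 20. The differences from CD103-CD11b+ cells were then -0.0642 for CD4, 0.117 for CD90.2, -0.0657 for KLRG1 and -0.0468 for CD127 (exact permutation p adjusted 0.45 to 0.688). The thresholds were also refitted for these gates. Neither these gates nor the levels are scaled to depth, and the part of depth was not tested. With gates centred on the 7 antibodies of the rule, the mean left out the 4 tested here. The differences were then -0.247, -0.217, -0.152 and -0.302 in the same order. Only 3 libraries held enough cells, too few for the test to pass.

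Against CD103+CD11b- cells the differences were small. They were 0.010 ± 0.156 for CD4, -0.0889 ± 0.216 for CD90.2, -0.0376 ± 0.107 for KLRG1 and -0.0590 ± 0.141 for CD127 (SD, n = 7), each within 1 SD between libraries, with exact permutation p adjusted from 0.393 to 0.781. With uncentred gates all 4 were higher on CD103+CD11b+ cells in 6 of 6 libraries, by 0.312, 0.295, 0.196 and 0.190 in the same order. Their exact permutation p was 0.0313, the smallest that 6 libraries can give, and 0.0625 after adjustment. Both the uncentred gates and these levels use counts not scaled to depth, and the part of depth was not tested. With the rule's gates and levels taken as centred log ratios, all 4 were lower, with differences of -0.190, -0.289, -0.238 and -0.260 (exact permutation p adjusted 0.0156). The cell mean subtracted there holds CD103 and CD11b, which the rule sets, and it shifts all 4 by the same amount. That scale therefore cannot decide which class holds more of these proteins. The order of the 2 CD103+ classes in lymphoid proteins was thus not settled.

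**Figure D5:**
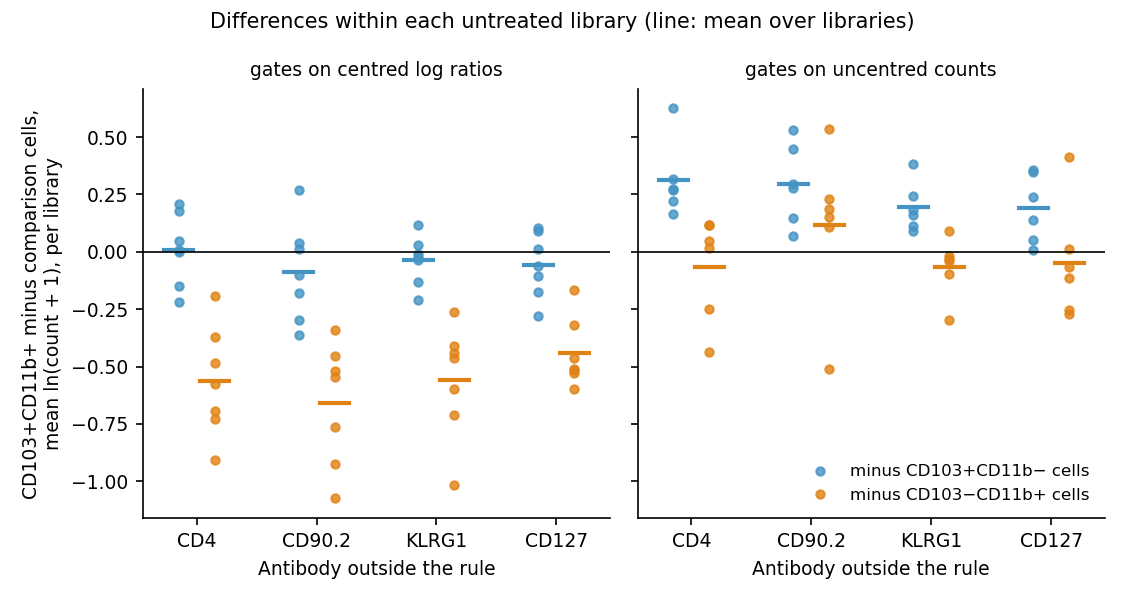
Differences in mean natural log of the count plus 1 between CD103+CD11b+ cells and each comparison class of the dendritic gate, 1 point per untreated library with the mean as a line, for the rule's gates and for uncentred gates. Against CD103-CD11b+ cells all points lie below 0 with the rule's gates, and with uncentred gates the means lie between -0.0657 and 0.117.

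The last comparison set the anti-IL-12p40 library beside the untreated library of week 7, 1 pool against 1, so no test was made. CD103+CD11b+ cells numbered 39 with treatment and 6 without. The share of all cells was 0.314% (0.223% to 0.428%) with treatment against 0.0504% without, a ratio of 6.22 (2.62 to 18.0). CD3+ cells were 70.3% of the treated library and 88.1% of the untreated one. Among CD3- cells the share was 1.06% (0.753% to 1.44%) with treatment against 0.422% without, a ratio of 2.5 (1.05 to 7.24). Within the dendritic gate it was 5.39% (3.86% to 7.29%) against 3.61%, a ratio of 1.49 with an interval that includes 1 (0.626 to 4.31). With thresholds fitted in each library the ratios were 2.07 of all cells, 0.786 of CD3- cells and 0.921 of the gate, so the last 2 turned below 1. With scaled counts that of the gate was 0.226, from 8 of 248 treated cells and only 1 of 7 untreated cells. On each denominator, under the rule, the treated value lay within the range of the untreated libraries of weeks 5 to 7, which was 0.0504% to 0.561% of all cells, 0.422% to 1.98% of CD3- cells and 3.61% to 11.8% of the gate.

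The treated cells had medians of 193 CD11c, 104 CD103 and 89 CD11b counts, each within the untreated range. Macrophage-phenotype cells of that library had 10 CD11c and 44 CD11b counts, below the untreated libraries in both, and below the CD103+CD11b+ cells there. The median total of the treated CD103+CD11b+ cells was 765 counts in a library with a median of 1566. A CD90.2+ call was made on 10 of 39 treated cells (25.6%), against 27.9% of neutrophil-phenotype cells of that library, and a CD4+ call on 5 of 39 (12.8%), against 14.8%. Those neutrophil-phenotype cells were deeper, with a median total of 2482 counts. Whether the CD90.2+ and CD4+ calls are background was not tested. KLRG1+ and CD127+ calls were each made on 7.69% of the treated cells, against 6.56% and 11.5% of neutrophil-phenotype cells. On CD103+CD11b- cells of the treated library the CD90.2+ share was 52.1%.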

How the data were processed

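The authors deposited whole-number counts of 11 tagged antibodies per cell barcode, not normalized. Per the labels' protocols, about 16000 cells of a pool of 3 animals were loaded, and 3 libraries held more barcodes than that. Seurat 4.1.1 and Cell Ranger 6.0.2 are listed in the submitters' processing notes. The choice of barcodes is described in none of the sources used here. The series has 64 samples, and 55 were not used here. Barcodes under 50 counts or above the 99th percentile of their library were left out, which kept 130442 of 131917 (98.9%). No doublet caller was run on the antibody counts. Thresholds for antibodies outside the rule came from 2-component Gaussian mixtures on 2000 cells per library. Shares were tested against week by exact permutation over 40320 orderings of 8 libraries (5040 for 7). Levels were tested by exact sign flips over libraries with at least 20 cells in each class. Adjustment was by Benjamini-Hochberg at 0.05. All 11 antibodies are named. The members and lists were chosen with earlier results of these data known. Steps were tested on simulated data. Software was scikit-learn 1.9.0, scipy 1.17.1, numpy 2.4.6, pandas 2.3.3, matplotlib 3.10.9 and Python 3.11.15.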

Additional observations from a re-analysis of the deposited data

How the results depend on the processing

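Of 314 alternative values, 54 lost a call, 8 gained one in the same direction, 25 reached 0 or turned sign (1 of them gaining a call), 3 treated ratios moved beyond their interval, and 224 did none of these, though among them the treated ratio of the gate was 0.921 with thresholds per library. Members numbered 1309, but 838 and 2079 with CD103 and CD11b thresholds raised or lowered by 0.3, 522 with counts scaled to each library's median, 570 with gates centred on the 7 antibodies of the rule, 658 with uncentred gates and 724 with thresholds fitted per library. Uncentred gates and gates centred on 7 antibodies were added after seeing the data. Each list that follows is in the order CD4, CD90.2, KLRG1, CD127. Against CD103-CD11b+ cells all 4 passed in 6 settings (exact permutation p adjusted 0.0156 to 0.0313). These were lowered thresholds, thresholds per library, no minimum count, a minimum of 200 counts, the top 5% of totals left out, and levels as centred log ratios. The settings that follow did not pass. Raised thresholds gave -0.523, -0.618, -0.443, -0.379, and at least 50 cells per library -0.543, -0.679, -0.532, -0.428. Levels centred on the same 4 antibodies gave -0.00842, -0.104, -0.00176, 0.114. Those 4 differences cancel by construction, so a shared decrease cannot show there. Scaled counts gave -0.555, -0.823, -0.433, -0.627, and gates centred on 7 antibodies -0.247, -0.217, -0.152, -0.302. Uncentred gates gave -0.0642, 0.117, -0.0657, -0.0468, and thinning to 150 counts -0.536, -0.498, -0.181, -0.157. Of these settings, thinning left 5 libraries, gates centred on 7 antibodies 3 and scaled counts 2, too few for any value to pass. Raised thresholds, at least 50 cells and uncentred gates left 6 libraries, and levels centred on 4 antibodies kept 7. Leaving out each library in turn gave -0.627 to -0.507, -0.713 to -0.591, -0.607 to -0.481 and -0.488 to -0.416, each at the adjusted p of 0.0625 that 6 libraries give when these 4 comparisons are at the smallest p. Against CD103+CD11b- cells, levels as centred log ratios gave -0.190, -0.289, -0.238, -0.260, all 4 newly passing. The mean subtracted there holds CD103 and CD11b, which the rule sets, so this setting cannot decide the order of the classes. CD4 there was -0.0277 with lowered thresholds, -0.131 thinned, -0.00517 without the top 5% of totals and -0.0229 to 0.0480 with each library left out. For CD90.2, KLRG1 and CD127 it was 0.135, 0.208 and 0.148 with scaled counts, 0.155, 0.152 and 0.103 with gates centred on 7 antibodies, and 0.295, 0.196 and 0.190 with uncentred gates. KLRG1 was also 0.00123 with raised thresholds, 0.00628 with levels centred on 4 antibodies and 0.0118 thinned. The rank trend of the dendritic gate share was 0 with scaled counts, 0.190 with thresholds per library, 0.143 without weeks 0 and 7 and -0.857 with gates centred on 7 antibodies (exact permutation p adjusted 0.0321), and -0.714 to -0.286 with each library left out. That of all cells and of CD3- cells was -0.75 to -0.429. The CD127+ trend was 0.0857 with uncentred gates and the CD4+ trend -0.257 with raised thresholds. The CD90.2+ trend passed with raised thresholds (-0.943) and uncentred gates (-0.986), and the KLRG1+ trend with raised thresholds (-0.928) and thresholds per library (-0.893). The treated ratio was 2.07 of all cells and 0.786 of CD3- cells with thresholds per library. It was 0.226 of the gate with scaled counts, where the untreated share was 1 of 7 cells. Apart from fewer libraries or members by construction, the cause was not tested. No paired analysis was possible because each week is 1 pool, so no replicate number links weeks. Classes of cells were compared within each library. The number of members, 21 and 6, limits weeks 3 and 7, rather than depth.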
